A study of Mus musculus with 37 samples.

Results

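The EGR and NR4A immediate-early transcription factors comprised 6 genes, EGR1 (ENSG00000120738), EGR2 (ENSG00000122877), EGR3 (ENSG00000179388), NR4A1 (ENSG00000123358), NR4A2 (ENSG00000153234) and NR4A3 (ENSG00000119508), which were located among 60708 row IDs by these identifiers. They had been picked after earlier results on the exposure modes were known, so the differences between modes are given as a description with no test. Primary splenocytes of wild-type FVB mice were sequenced in 37 libraries of 13 groups. Before the splenocytes were added, RAW264.7 cells, macrophage-like cells of mouse origin, spent 72 h in normoxia (21% oxygen) or hypoxia (1% oxygen) and either received recombinant SPP1 (osteopontin, a secreted integrin and CD44 ligand) or did not. The splenocytes were then kept for 48 h with the culture medium taken from the RAW cells (medium, 11 libraries), with the RAW cells as they were (unwashed, 12 libraries) or with RAW cells after a media wash (washed, 12 libraries), so that each mode held 4 groups by oxygen and SPP1. The medium, normoxia, no-SPP1 group and the splenocytes labelled only as naive had 2 libraries each, and the other 11 groups had 3. Brefeldin A, a blocker of protein secretion, was added after the 48 h. Whether the naive cells were kept in culture or received brefeldin A is not stated. In differences from naive, exposure and time in culture therefore cannot be told apart. All groups came from 1 mouse strain and 1 RAW cell line. The oxygen and SPP1 labels describe the culture of the RAW cells and not that of the splenocytes.

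EGR proteins are zinc finger factors and NR4A proteins (Nur77, Nurr1 and NOR-1) are orphan nuclear receptors. Their genes are immediate-early genes, which are transcribed within minutes of a stimulus without new protein synthesis, in lymphocytes after antigen receptor engagement and in macrophages after inflammatory or adhesive signals. The EGR genes are known as targets of ERK signaling through serum response factor, which binds CArG boxes, and the NR4A genes as targets of calcium and cAMP signaling, including through CREB, which binds the cAMP response element TGACGTCA. EGR2, EGR3 and all NR4A factors are also known to restrain T cell activation.

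Alignment was to the human genome although the cells were murine, so each value counts mouse reads that matched the human gene, and reads of related family members cannot be assigned with certainty. Levels of different genes were not compared for this reason. All 6 members had a count in all 37 libraries and all passed the filter on low counts, as 5193 IDs did. Mean counts were 1412 for EGR1, 1193 for EGR3, 714 for NR4A1, 107 for NR4A3, 61.5 for NR4A2 and 57.1 for EGR2, so none was poorly captured, the limit being a mean of 10 counts. Total counts per library ran from 631574 to 1337314. The study's methods say that experiments were repeated independently, but no label ties the libraries of a group to separate cultures or mice, and p-values therefore measure the spread between these libraries. In a principal component analysis of log2 CPM, 3 washed libraries (hypoxia SPP1 replicate 1, normoxia SPP1 replicates 1 and 2) and 1 unwashed library (hypoxia no-SPP1 replicate 2) stood apart on the second component (12.3% of the variance, scores of -54.4 to -31.8 against -14.2 to 21 elsewhere). Besides, 2 medium libraries (hypoxia no-SPP1 replicate 1 and normoxia no-SPP1 replicate 3) had scores of -11.6 and -10.7 on the first component (33.2%), against -57.5 to -41.5 in the other medium libraries. All 3 washed libraries so placed had received SPP1. The splenocytes were collected in bulk from cultures with RAW cells, and marker genes of macrophages or lymphocytes could not be matched to the IDs, so neither the share of RAW cell RNA nor the presence of lymphocyte markers was measured. In such samples fewer cells of a type and less RNA per cell cannot be told apart.

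Promoters of the members are shown with motifs of the factors named above, because several members differed together between modes. Of the 6 members, 4 were matched by mouse symbol in a RefSeq promoter table (GRCm38.p6), and Egr1 and Egr3 were not. The windows searched ran from 250 bases before to 50 after a transcription start, and each line gives the 250 bases before a transcription start, 5′ to 3′ on the strand of the gene, with all matches to the searched motifs in capitals on either strand. These matches were to the CArG box, to TGACGTCA, to GCGNGGGCG (the EGR site), to AAAGGTCA (the NR4A monomer site) or to TGACG, the core of TGACGTCA, which was added after the first searches. On the opposite strand TGACG reads CGTCA. Of 5 Egr2 starts in the table, 4 held a CArG box, and the one printed was chosen after the matches were seen. The windows from 67537619, 67537620 and 67537680 overlap and hold the same box (-72, -73 and -133 from their starts), so these are not separate boxes.
Egr2, chr10:67537619-67537868, plus strand: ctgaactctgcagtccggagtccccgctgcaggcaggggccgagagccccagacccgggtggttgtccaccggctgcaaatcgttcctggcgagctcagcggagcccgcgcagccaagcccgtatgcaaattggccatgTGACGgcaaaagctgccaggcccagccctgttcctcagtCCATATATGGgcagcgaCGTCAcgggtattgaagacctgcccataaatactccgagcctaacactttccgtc
Nr4a1, chr15:101266596-101266845, plus strand: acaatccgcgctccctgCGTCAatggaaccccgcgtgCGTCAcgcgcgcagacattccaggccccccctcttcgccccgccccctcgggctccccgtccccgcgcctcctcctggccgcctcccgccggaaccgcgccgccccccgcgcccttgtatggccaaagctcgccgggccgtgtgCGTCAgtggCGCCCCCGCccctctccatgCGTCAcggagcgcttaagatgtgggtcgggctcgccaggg
Nr4a2, chr2:57124004-57124253, minus strand: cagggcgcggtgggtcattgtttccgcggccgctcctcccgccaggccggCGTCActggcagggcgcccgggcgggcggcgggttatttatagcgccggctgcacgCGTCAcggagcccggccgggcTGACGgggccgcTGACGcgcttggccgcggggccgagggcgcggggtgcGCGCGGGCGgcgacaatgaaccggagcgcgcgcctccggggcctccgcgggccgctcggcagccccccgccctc
Nr4a3, chr4:48045055-48045304, plus strand: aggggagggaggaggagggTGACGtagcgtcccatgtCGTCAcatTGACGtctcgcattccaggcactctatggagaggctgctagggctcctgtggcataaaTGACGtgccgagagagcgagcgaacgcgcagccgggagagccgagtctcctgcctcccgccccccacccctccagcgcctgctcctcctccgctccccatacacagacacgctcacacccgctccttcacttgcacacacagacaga

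A CArG box lay at -72 (its leftmost base, counted from the transcription start) in the Egr2 promoter, and 1.63% of 32851 promoters in the table held one. The Nr4a1 promoter held a GCGNGGGCG match at -60 and the Nr4a2 promoter one at -74, as did 5.55% of all promoters. The whole element TGACGTCA (1.79% of promoters) and the AAAGGTCA site (1.51%) matched none of these windows. TGACG, present in 20.8% of promoters, occurred 4 times each in Nr4a1, Nr4a2 and Nr4a3 and 2 times in Egr2. In Nr4a1 its matches lay at -233, -213, -69 and -40. These are matches of letters, with no binding measured.

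EGR1, EGR2 and EGR3 had higher mean levels with RAW cells present than with their medium alone. EGR1 was at 76.1 and 71.6 CPM (library-size-scaled counts after TMM normalization) in the 2 naive libraries. In medium its lowest, median and highest libraries were at 137, 225 and 342 CPM, in unwashed at 125, 2056 and 2481 CPM, and in washed at 122, 2408 and 3649 CPM. Every exposed library was thus above both naive ones, and all but 4 of the libraries with RAW cells were above 1000 CPM. For EGR1 the log2 fold change was 2.91 (SE 0.399) for unwashed against medium, 3.15 (SE 0.404) for washed against medium and 1.58 (SE 0.782) for medium against naive.

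EGR3, a close relative of EGR1 and EGR2, was at 50.8 and 106 CPM in naive. Its lowest, median and highest values were 176, 204 and 395 CPM in medium, 494, 1560 and 1984 CPM in unwashed and 734, 1848 and 2302 CPM in washed. EGR3 was the only member for which every unwashed and every washed library lay above every medium library, and every medium library in turn lay above both naive ones. Its log2 fold changes were 2.63 (SE 0.193) for unwashed against medium, 2.84 (SE 0.196) for washed against medium and 1.60 (SE 0.386) for medium against naive.

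EGR2 was at 2.93 and 15.6 CPM in naive and at 4.08, 10.9 and 30.1 CPM (lowest, median and highest) in medium. It reached 19.9, 80.5 and 134 CPM in unwashed and 4.63, 60.1 and 149 CPM in washed. The medium and naive libraries overlapped, and the lowest values rest on as few as 3 counts. For EGR2 the log2 fold change was 2.68 (SE 0.397) for unwashed against medium and 2.42 (SE 0.397) for washed against medium.

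**Figure D1:**
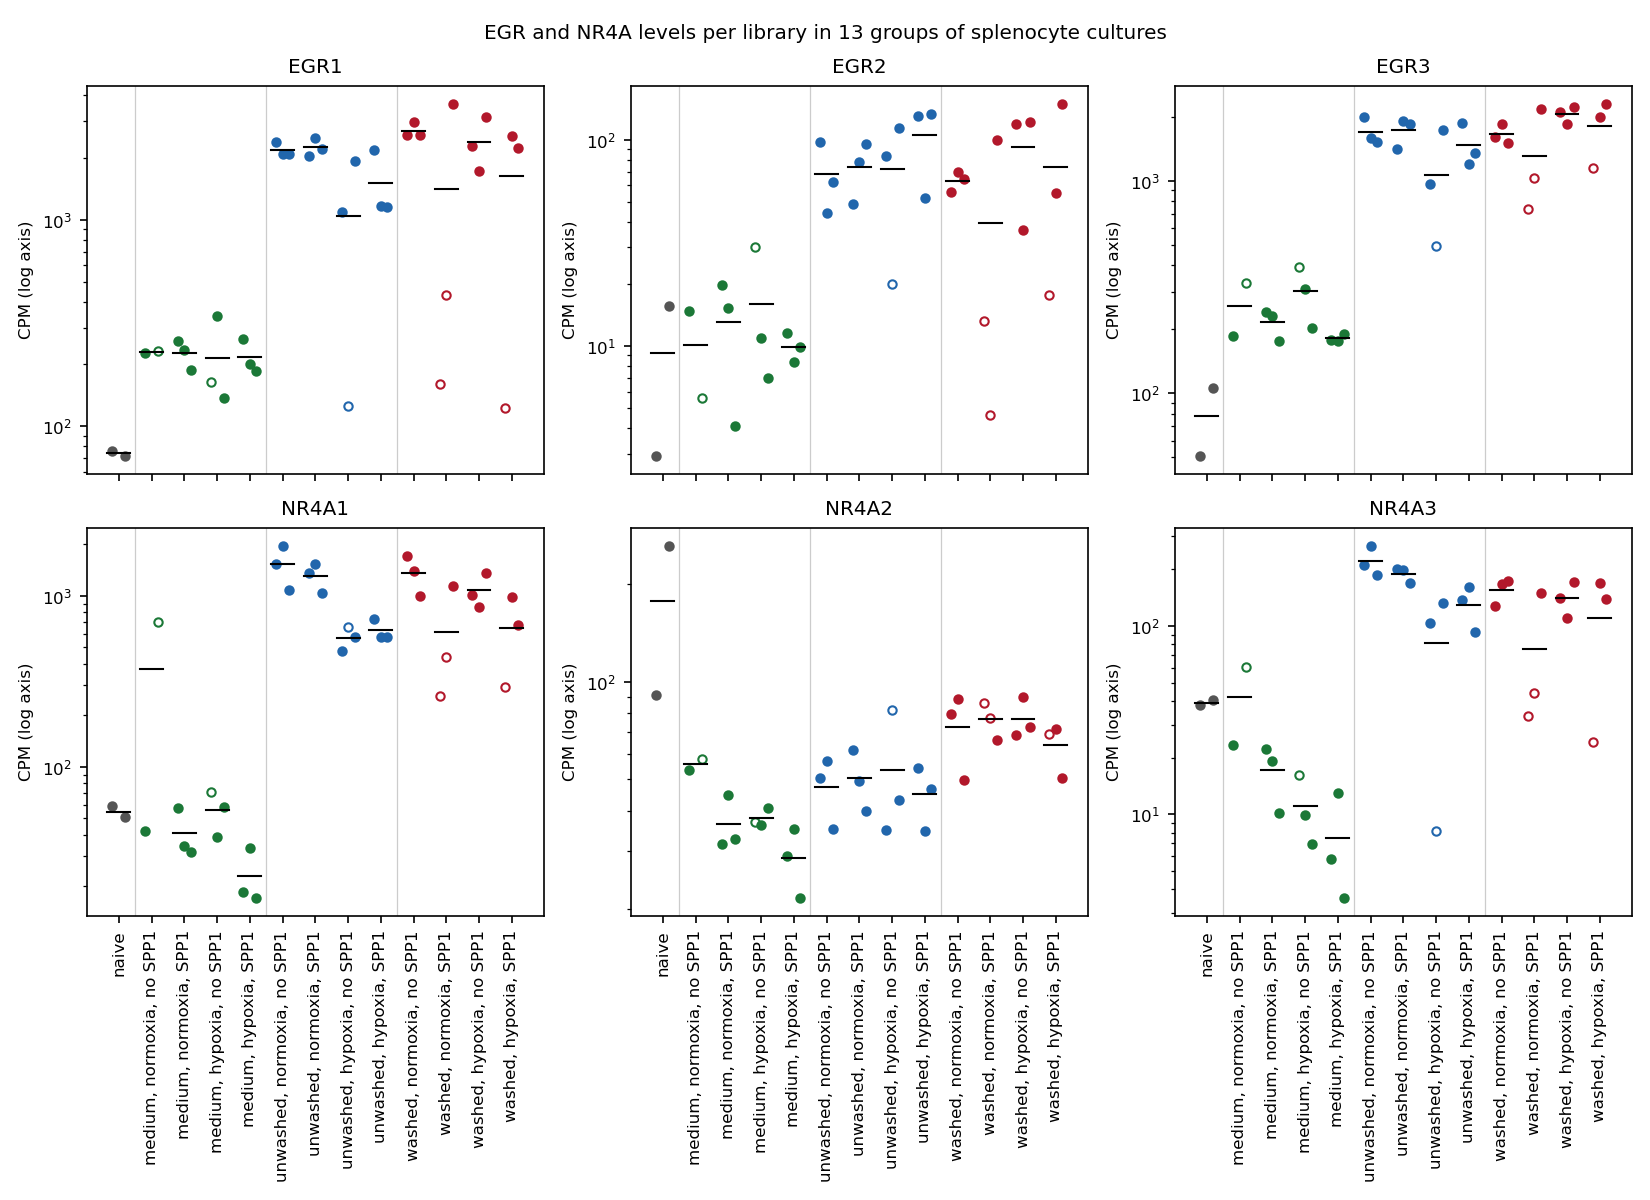
CPM (log axis, 1 point per library, horizontal line at the group mean) of the 6 members in the 13 groups, ordered as naive (grey), medium (green), unwashed (blue) and washed (red), with open points for the 6 libraries that stood apart. All members are mostly higher in washed than in medium, and all but NR4A2 are mostly higher in unwashed than in medium. NR4A2 is highest in naive, and the open points of the washed groups lie below the filled ones except for NR4A2.

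NR4A1 and NR4A3 likewise had higher mean levels with RAW cells than with medium. NR4A1 (Nur77), the receptor most used as a reporter of T cell receptor signaling, was at 58.6 and 50.8 CPM in naive. It was at 17.1, 39.0 and 706 CPM (lowest, median and highest) in medium, at 473, 881 and 1965 CPM in unwashed and at 260, 985 and 1700 CPM in washed. The value of 706 CPM belonged to medium normoxia no-SPP1 replicate 3, the next medium library being at 70.9 CPM, and without this library all unwashed and washed libraries lay above all medium ones. Its log2 fold change was 3.78 (SE 0.306) for unwashed against medium and 3.71 (SE 0.304) for washed against medium. For medium against naive it was 0.29 (SE 0.535), and -0.52 without that library.

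NR4A3 (NOR-1) was at 38.1 and 40.4 CPM in naive and at 3.59, 12.9 and 60.7 CPM (lowest, median and highest) in medium. It was at 8.20, 165 and 268 CPM in unwashed and at 24.1, 140 and 173 CPM in washed. Thus 10 of 11 medium libraries were below both naive libraries, while NR4A3 in most libraries with RAW cells was above them. Its log2 fold changes were -1.31 (SE 0.551) for medium against naive, 3.20 (SE 0.329) for unwashed against medium and 2.90 (SE 0.327) for washed against medium.

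NR4A2 (Nurr1) had another order. It was at 90.8 and 263 CPM in naive, above all 35 exposed libraries. The lowest, median and highest values were 21.6, 36.2 and 57.9 CPM in medium, 34.8, 48.1 and 82.0 CPM in unwashed and 49.7, 72.0 and 89.7 CPM in washed, so that the 3 modes overlapped. For NR4A2 it was a log2 difference of -2.19 (SE 0.272) for medium against naive, -1.84 for unwashed against naive and -1.29 for washed against naive, and 0.35 (SE 0.176) and 0.90 (SE 0.176) for unwashed and washed against medium. These comparisons share the medium or the naive libraries, and the naive arm rests on 2 libraries that lay far apart for NR4A2.

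Members without overlap between modes are given beside the share of all IDs for which the same held. Against naive, 2 members (EGR1 and EGR3) were higher in every medium library, as were 15.3% of the 5193 IDs. In unwashed 4 members (EGR1, EGR2, EGR3 and NR4A1) were higher in every library (14.4% of IDs), and in washed 3 were (EGR1, EGR3 and NR4A1, 13.2% of IDs). NR4A2 was lower in every medium, unwashed and washed library, as were 14.5%, 13.3% and 13.7% of IDs. Against medium, only EGR3 was higher in every unwashed library (1.77% of IDs) and in every washed library (2.93%), and no member was lower in every library (2.02% and 3.62%). The median log2 fold change of the 6 members was 2.80 for unwashed against medium and 2.87 for washed against medium, beside -0.02 and -0.03 for all IDs. By edgeR's test, given only as background, 32.4%, 27.3% and 34.5% of IDs passed for medium, unwashed and washed against naive, and 48.7% and 58.7% for unwashed and washed against medium. Since these contrasts were known when the members were chosen, nothing is read from these counts.

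Ordered by group mean, EGR1, EGR2 and EGR3 had the 8 groups with RAW cells first, then the 4 medium groups and then naive. NR4A1 and NR4A3 also had those 8 groups first, with naive among the medium groups, and NR4A2 had naive first and the 4 washed groups next. Most neighbours in these orders overlapped. How many neighbouring pairs were separated for other IDs was not computed, so nothing is read from the counts that follow. Of 12 neighbouring pairs per member, those without overlap numbered 1 for EGR1 (medium hypoxia no-SPP1 above naive), 2 for EGR3 (unwashed hypoxia no-SPP1 above medium hypoxia no-SPP1, and medium hypoxia SPP1 above naive), 1 for NR4A2 (naive above washed hypoxia no-SPP1), 1 for NR4A3 (naive above medium normoxia SPP1) and 0 for EGR2 and NR4A1.

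To ask whether the medium left on the RAW cells mattered, washed was compared with unwashed, averaged over oxygen and SPP1. NR4A2 was higher in washed (72.5 ± 13.05 CPM, SD, n = 12) than in unwashed (49.1 ± 13.7 CPM, SD, n = 12). The difference on the log2 scale was 0.56 (SE 0.168, with an adjusted p of 0.037 from edgeR's quasi-likelihood test with Benjamini-Hochberg adjustment over all IDs), although the ranges overlapped. It was the only member of 6 called at an adjusted p under 0.05, beside 7.24% of all IDs. When each library was dropped in turn, 15 of the 24 fits no longer called NR4A2, the adjusted p reaching 0.0748, nor did the fit on every ID with a count (0.211) or the one on only these modes (0.0532). It remained called without unwashed hypoxia SPP1 replicate 1, unwashed normoxia SPP1 replicate 1, unwashed hypoxia no-SPP1 replicate 2, unwashed normoxia no-SPP1 replicate 2, washed hypoxia no-SPP1 replicate 1 or 3, or replicate 3 of washed hypoxia SPP1, washed normoxia no-SPP1 or washed normoxia SPP1. The log2 fold change stayed between 0.50 and 0.67 over 31 alternatives. NR4A2 differed in the same direction after normoxia (0.61, SE 0.238, adjusted p = 0.152) and after hypoxia (0.51, SE 0.239, adjusted p = 0.334), without passing in either, where 1.29% and 1.62% of IDs were called. Without washed normoxia SPP1 replicate 3, EGR2 (-1.61, adjusted p = 0.0393) and NR4A3 (-1.40, adjusted p = 0.0216) were called after normoxia. That group then held only replicates 1 and 2, both set apart on the second component, so these calls rest on them. Without the 4 libraries set apart, EGR2 changed sign to 0.17 after normoxia. The value of NR4A3 ranged from -1.40 to -0.42 over 19 alternatives.

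The other members did not pass in washed against unwashed. EGR1 had a log2 fold change of 0.24 with a 95% interval of -0.44 to 0.92, that of EGR3 0.21 (-0.13 to 0.54), that of NR4A1 -0.07 (-0.56 to 0.41), that of NR4A3 -0.31 (-0.84 to 0.23) and that of EGR2 -0.27 (-0.93 to 0.39). EGR1 rested on the libraries set apart on the second component. Without those 4 libraries its log2 fold change was 0.58 and its adjusted p 0.0254, and that of NR4A2 was 0.60 with an adjusted p of 0.0493. Leaving out washed normoxia SPP1 replicate 3 alone gave -0.32 for EGR1 (adjusted p = 0.506).

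The NR4A1 signal in unwashed cultures was lower when the RAW cells had been in hypoxia. After normoxia it was at 1536, 1965 and 1085 CPM without SPP1 and at 1360, 1540 and 1031 CPM with SPP1. After hypoxia it was at 473, 660 and 575 CPM without SPP1 and at 731, 575 and 576 CPM with SPP1. All 6 hypoxia libraries thus lay below all 6 normoxia libraries, in both SPP1 states. On the log2 scale hypoxia minus normoxia was -1.24 (SE 0.356, adjusted p = 0.041, edgeR), to 0.42 of the normoxia level, and NR4A1 was the only member of 6 called, beside 3.62% of IDs. Its size ranged from -1.34 to -1.13 over 19 alternatives and it was called in both DESeq2 (adjusted p = 0.0224) and the fit without the 4 libraries set apart (0.0176), but when each library was dropped in turn 11 of 12 fits did not call it, with adjusted p of 0.0508 to 0.11. Only the fit without unwashed normoxia no-SPP1 replicate 3 did (0.0483).

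NR4A3 was the other member without overlap in this comparison, with 170, 200 and 268 CPM (lowest, median and highest) after normoxia and 8.20, 118 and 161 CPM after hypoxia. Libraries of 2.18% of all IDs were separated in this direction. Its log2 fold change of -0.99 (SE 0.383) did not pass (adjusted p = 0.152), and was -0.71 (adjusted p = 0.0618) without the 4 libraries set apart, which include the one at 8.20 CPM. EGR1 was at 2032, 2146 and 2481 CPM after normoxia and at 125, 1160 and 2172 CPM after hypoxia, a difference of -0.82 on the log2 scale (SE 0.494, adjusted p = 0.394). EGR3 gave -0.45 (SE 0.242, adjusted p = 0.327), EGR2 0.30 (SE 0.47, adjusted p = 0.791) and NR4A2 0.01 (95% interval -0.46 to 0.48).

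In washed cultures no member passed for hypoxia, 0.0385% of IDs being called. NR4A1 was at 260, 1067 and 1700 CPM after normoxia and at 293, 922 and 1361 CPM after hypoxia, with a log2 fold change of -0.13 (95% interval -0.82 to 0.56). The difference between the hypoxia effects in unwashed and washed was tested after the values had been seen. It was -1.11 (SE 0.497, adjusted p = 0.645) for NR4A1, -1.19 (SE 0.542, adjusted p = 0.655) for NR4A3 and -0.85 (SE 0.343, adjusted p = 0.572) for EGR3, so no difference between the modes was established, and 0.173% of IDs were called.

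In medium, where 0.077% of IDs were called for hypoxia, no member was called. NR4A1 gave -1.79 (SE 0.412, adjusted p = 0.0871), a value set by medium normoxia no-SPP1 replicate 3, without which it was -0.21 (adjusted p = 1). DESeq2 called it (adjusted p = 0.00781), as did the fits without the 4 libraries set apart (0.0281) and without medium normoxia no-SPP1 replicate 2 (-2.28, adjusted p = 8.94e-05). NR4A3 was at 10.2, 22.2 and 60.7 CPM (lowest, median and highest) after normoxia and at 3.59, 8.46 and 16.2 CPM after hypoxia, which came to -1.56 on the log2 scale (SE 0.497, adjusted p = 0.388). The 3 EGR members differed by -0.08 to 0.12. The difference between the hypoxia effects in unwashed and medium, also added afterwards, was 0.55 for NR4A1 (SE 0.539, adjusted p = 0.849), and no member was called (0.481% of IDs).

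**Figure D2:**
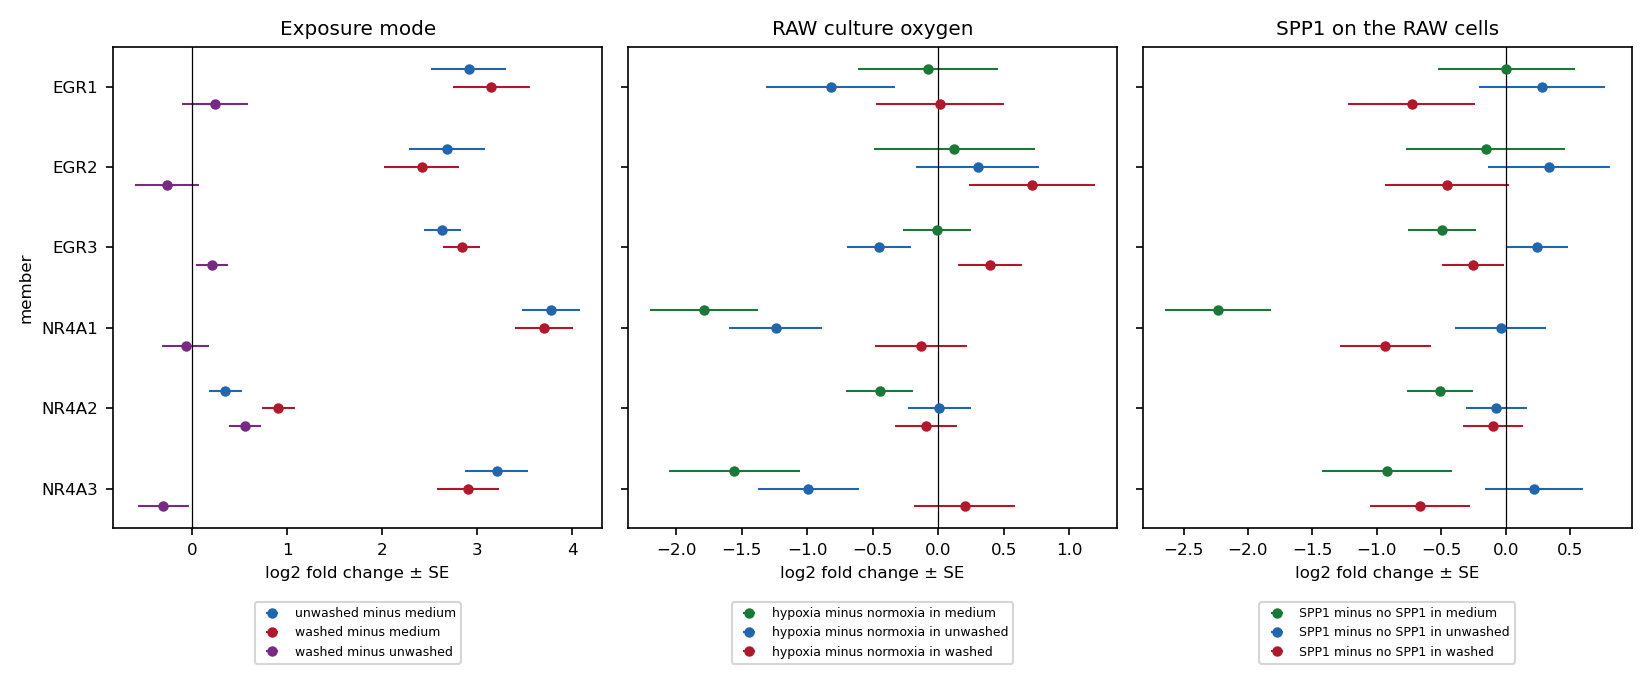
Log2 fold changes with standard errors (edgeR) of the 6 members for exposure mode, for hypoxia minus normoxia of the RAW cells and for SPP1 minus no SPP1, the latter sets shown for medium (green), unwashed (blue) and washed (red). NR4A1 in unwashed lies at -1.24 for hypoxia, and NR4A1 in medium at -2.23 for SPP1, a value that rests on 1 library.

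SPP1 given to the RAW cells left most members without a detectable difference. In unwashed, edgeR called no ID (0% of 5193), with 87 IDs at an unadjusted p under 0.05, and DESeq2 called 0. Members differed there by -0.07 (NR4A2) to 0.33 (EGR2), and the widest interval, that of EGR1, ran from -0.68 to 1.24.

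In washed, 0.0193% of IDs and no member were called for SPP1. EGR1 was at 1717, 2559 and 3132 CPM (lowest, median and highest) without SPP1 and at 122, 1330 and 3649 CPM with it. NR4A1 was at 864, 1182 and 1700 CPM without and at 260, 554 and 1143 CPM with SPP1, a log2 difference of -0.94 (SE 0.354, adjusted p = 0.358). The log2 fold changes of the 6 members ran from -0.94 (NR4A1) to -0.10 (NR4A2). Without washed normoxia SPP1 replicate 3, EGR1 (-1.85, adjusted p = 0.0234) and NR4A1 (-1.34, adjusted p = 0.0324) were called. The washed normoxia SPP1 group then held only replicates 1 and 2, both set apart. The 3 washed libraries set apart are all SPP1 libraries, and without the 4 libraries set apart EGR1 gave 0.23, EGR2 0.41, EGR3 0.24, NR4A3 0.04 and NR4A1 -0.31 (adjusted p = 0.95).

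In medium, NR4A1 was called for SPP1, beside 0.25% of IDs, and this rested on 1 library. Its CPM values without SPP1 were 42.1 and 706 after normoxia and 70.9, 39.0 and 58.3 after hypoxia, and with SPP1 they were 57.1, 34.4 and 31.6 after normoxia and 18.4, 33.3 and 17.1 after hypoxia. SPP1 minus no SPP1 was -2.23 on the log2 scale (SE 0.413, adjusted p = 0.0115, edgeR). Dropping medium normoxia no-SPP1 replicate 3 left -0.67 (adjusted p = 0.772). The call was also missed without medium hypoxia no-SPP1 replicate 1 (-2.18, adjusted p = 0.0785) or medium normoxia SPP1 replicate 3 (-2.16, adjusted p = 0.0687). The other 5 members did not pass, EGR3 giving -0.50 (SE 0.261, adjusted p = 0.584) and NR4A2 -0.51 (SE 0.257, adjusted p = 0.555).

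Whether the SPP1 difference depended on oxygen was tested as an interaction in each mode. No ID was called in medium, unwashed or washed (0% each), with 189, 88 and 262 IDs at an unadjusted p under 0.05 by edgeR, and DESeq2 called 1, 0 and 0. NR4A1 in medium had the largest member value, 1.88 (SE 0.826, adjusted p = 1), which became -1.31 when medium normoxia no-SPP1 replicate 3 was dropped. The standard errors of the other member values were 0.472 to 1.23 on the log2 scale.

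Apart from NR4A1 and NR4A3 in unwashed, no member had libraries without overlap between oxygen or SPP1 states, or between washed and unwashed after normoxia or hypoxia. For washed above unwashed such IDs made up 1.87% after normoxia and 0.347% after hypoxia, and for washed below unwashed 2.85% and 1.25%. For hypoxia above normoxia they made up 0.116% in medium, 2.45% in unwashed and 0.0578% in washed, and for hypoxia below normoxia 0.558% in medium and 0.327% in washed. For SPP1 above no SPP1 they made up 0.308% in medium, 0.0193% in unwashed and 0.0963% in washed, and for SPP1 below 0.385%, 0.0385% and 0.135%.

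The washed and unwashed libraries set apart on the second component each lay outside the range of the other libraries of their mode in 5 of the 6 members. The exceptions were NR4A2 in washed and NR4A1 in unwashed. The share of all IDs so placed was not computed. As the libraries were set apart on scores of these same values, nothing is read from the count. In the 3 washed ones the mean of EGR1 was 239 CPM against 2624 CPM in the other 9, that of EGR2 11.9 against 85.8 CPM, and that of NR4A3 33.7 against 150 CPM. NR4A1 was at 330 against 1122 CPM and EGR3 at 968 against 1953 CPM. All 3 libraries lay below all 9 for these members, and NR4A2 overlapped (77.6 against 70.8 CPM). These libraries had 691539 to 962194 counts in total, and whether their depth or RNA quality had a part in these levels was not tested.

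Unwashed hypoxia no-SPP1 replicate 2 had the lowest EGR1, EGR2, EGR3 and NR4A3 of the unwashed libraries (125, 19.9, 494 and 8.20 CPM). Its NR4A1 of 660 CPM was within the range of the other 11, and its NR4A2 of 82.0 CPM was above all of them. Medium normoxia no-SPP1 replicate 3 had the highest NR4A1, NR4A2 (57.9 CPM) and NR4A3 of the medium libraries, an EGR3 of 330 CPM below only the 395 CPM of medium hypoxia no-SPP1 replicate 1, an EGR1 of 231 CPM near the medium median and an EGR2 of 5.58 CPM. In each of these libraries 1 of NR4A1 and EGR1 lay outside the range of the other libraries of its mode and the other did not. The 2 medium libraries set apart on the first component were above the other 9 medium libraries for NR4A1 (highest of the 9, 58.3 CPM) and EGR3 (311 CPM). Both were within their range for EGR1 (137 to 342 CPM). Here too the share of all IDs was not computed.

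Within a mode, the members were correlated across libraries on the log2 CPM scale, for 45 pairs in all (Pearson's r with permutation p-values from 100000 resamples, Benjamini-Hochberg adjusted). With all libraries 3, 4 and 10 of 15 pairs passed in medium, unwashed and washed. The libraries set apart formed clusters of their own, and without them 0, 2 and 0 pairs passed. Both were in unwashed (n = 11). EGR1 with EGR3 had r = 0.89 (permutation adjusted p = 0.00157) and Spearman's rho = 0.92 (permutation adjusted p = 0.0081), with r = 0.85 after leaving out the 2 libraries farthest from the median of EGR1. This r pools oxygen states, and for EGR1 only the highest hypoxia library (2172 CPM) reached the range after normoxia (2032 to 2481 CPM). The oxygen step may thus be part of it. The other pair was NR4A1 with NR4A3, whose normoxia and hypoxia libraries form separate clusters, so no pooled r is given. Within the 6 normoxia libraries, a split added after the values were seen and adjusted over 2 pairs, NR4A1 with NR4A3 had r = 0.92 (exact permutation adjusted p = 0.0111) and rho = 0.83 (exact permutation adjusted p = 0.0583), with r = 0.81 without the 2 farthest. EGR1 with EGR3 had r = 0.91 there (exact permutation adjusted p = 0.0167) and rho = 0.94 (exact permutation adjusted p = 0.0333), with r = 0.99 without the 2 farthest. Both pairs were picked because they had passed in the libraries that include these 6, so the p-values of this split are no separate support. Its r values without the 2 farthest rest on the few libraries left. Each pair lies within 1 gene family, and whether reads assigned to a relative add to these r values was not tested. The same split was not run for the hypoxia libraries.

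**Figure D3:**
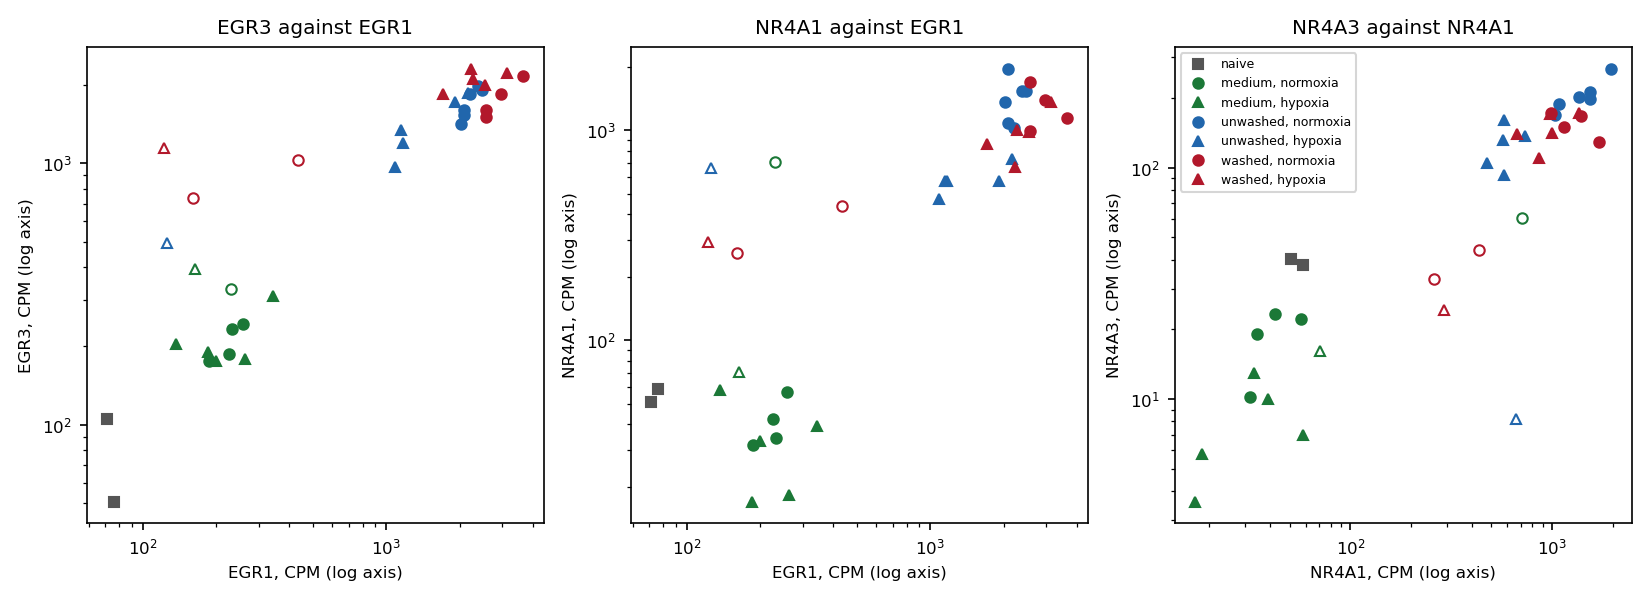
CPM of EGR3 against EGR1, NR4A1 against EGR1 and NR4A3 against NR4A1, on log axes, 1 point per library, colored by mode (squares naive, circles normoxia, triangles hypoxia, open points the libraries that stood apart). Unwashed hypoxia no-SPP1 replicate 2 has an NR4A1 of 660 CPM at an EGR1 of 125 CPM, and the medium library with an NR4A1 of 706 CPM has an EGR1 of 231 CPM.

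The ID whose log2 CPM was most like that of EGR1 over the 37 libraries, among 2849 IDs outside the members with a mean log2 CPM of at least 4, was ENSG00000196781.16 (r = 0.92, and 0.94 over the 31 libraries not set apart). Its mean was 44.6 CPM in naive, 51.3 in medium, 122 in unwashed and 114 in washed. For NR4A1 it was ENSG00000214612.3 (r = 0.95, and 0.96), with means of 607, 630, 1308 and 1230 CPM. These correlations run over libraries that fall into modes, and describe mainly the step between medium and cultures with RAW cells.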

How the data were processed

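Bulk 3′ RNA-seq was measured in 37 splenocyte libraries (QuantSeq). Per the labels, the authors trimmed reads with bbduk, used STAR 2.7.10b for alignment to GRCh38 and counted reads per gene with featureCounts (Rsubread 2.0.3), and they deposited raw counts per human Ensembl ID. The annotation release, the handling of reads with several alignments and the use of molecular identifiers were not given in the sources used here. Groups came from the treatment labels and replicate numbers from the titles. In edgeR 4.0.16 (R 4.3.3), filterByExpr (minimum count 10) selected IDs, which were scaled by TMM. They were fitted in 1 quasi-likelihood model with 13 group means. The model was also run on simulated counts, which held no libraries set apart. That run therefore does not show how such libraries affect the calls. Contrasts weighted groups equally, and an adjusted p under 0.05 over 5193 IDs was a call. Intervals are 1.96 standard errors. DESeq2 1.42.0 was an alternative. CPM used TMM-scaled totals, and log2 CPM a prior count of 2. The members and lists were chosen with earlier results of these data known. None of the IDs occurs in the mouse gene table, so the pathway and cell type lists were not matched, and besides the members only the ID most like EGR1 and the one most like NR4A1 are named. Total counts of 631574 to 1337314 limit the precision of the low members EGR2, NR4A2 and NR4A3.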

Additional observations from a re-analysis of the deposited data

Results flagged for a closer look

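By mode and oxygen, 36 sets of 5 or 6 libraries were examined for a value far from the others (Dixon's test), and 3 held one. For normally distributed values in separate sets, chance gives such a value in about 1 of 20 sets. These sets share libraries, and the test was run on CPM, where high values stand out more than low ones. It was not run on log2 CPM. The low NR4A3 of unwashed hypoxia no-SPP1 replicate 2 (8.20 CPM) was not flagged on this scale. All 3 flagged values were high ones in medium, and nothing is read from their all being in that mode. NR4A1 in medium normoxia no-SPP1 replicate 3 was at 705.9 CPM, the nearest of the 5 libraries being at 57.06 CPM, and NR4A3 in the same library was at 60.69 CPM, with the nearest at 23.4 CPM. EGR2 in medium hypoxia no-SPP1 replicate 1 was at 30.06 CPM, with the nearest of 6 libraries at 11.61 CPM. These are the 2 medium libraries that stood apart on the first principal component, and the part of that in these values was not tested.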

How the results depend on the processing

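Of 1788 recomputed member values with a test, 118 changed sign, none of them called in the fit as reported or in the alternative, and 33 lost and 17 gained a call. The limits are the 2 naive libraries, the 6 libraries set apart, the low counts of EGR2 and calls near the threshold. The cause of these changes was not tested.

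The number of members called for washed minus unwashed, 1 as reported, was 0 with every ID with a count, 0 with only the modes compared, 2 without the 4 libraries set apart on the second component, and 0 to 1 leaving out 1 library. For hypoxia in unwashed it was 3 with every ID with a count and 0 to 1 leaving out 1 library. For hypoxia in medium, 0 as reported, it was 1 with DESeq2, 2 with every ID with a count, 2 without the 4 libraries and 0 to 1 leaving out 1 library. For SPP1 in medium it was 0 with only the modes compared, 0 without the 2 medium libraries and 0 to 1 leaving out 1 library. It rose from 0 to 2 for SPP1 in washed and to 1 for washed minus unwashed after normoxia and for the difference of the hypoxia effect between unwashed and washed with every ID with a count, and leaving out 1 library gave 0 to 2 for SPP1 in washed and for washed minus unwashed after normoxia. The median over members ranged from 3.06 to 4.21 for unwashed minus naive and from 3.03 to 4.18 for washed minus naive when 1 library was left out. Without TMM the naive means were 83.8 CPM for EGR1, 61.9 for NR4A1 and 44.7 for NR4A3. Correlated pairs, 3, 4 and 10 in medium, unwashed and washed, fell to 0, 2 and 0 without the libraries set apart. Over the alternatives that keep all replicates or drop the libraries set apart, the IDs called ranged from 221 to 551 for washed minus unwashed (376 as reported), 27 to 234 after normoxia (67), 83 to 156 after hypoxia (84), 0 to 16 for hypoxia in medium (4), 182 to 290 in unwashed (188), 0 to 2 in washed (2), 0 to 36 for SPP1 in medium (13), 0 to 6 in unwashed (0), 0 to 43 in washed (1), 0 to 5, 0 to 4 and 0 to 2 for SPP1 by oxygen in medium, unwashed and washed (0 each), and 2 to 52 for the hypoxia effect in unwashed minus washed (9).

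Without the 4 libraries set apart on the second component, 26 of 84 tested values (log2 fold changes) changed sign. In washed minus unwashed these were EGR2 (0.049) and NR4A1 (0.27), and after normoxia EGR1 (0.50), EGR2 (0.17) and EGR3 (0.14). For hypoxia they were EGR3 in medium (0.0024), NR4A2 in unwashed (-0.20), and EGR1 (-0.39) and NR4A3 (-0.043) in washed. For SPP1 they were NR4A1 (0.031), NR4A2 (0.16) and NR4A3 (-0.034) in unwashed, and EGR1 (0.23), EGR2 (0.41), EGR3 (0.24) and NR4A3 (0.042) in washed. For SPP1 by oxygen they were EGR1 in medium (-0.019), EGR1 (-0.058), EGR2 (-0.042) and NR4A2 (0.096) in unwashed, and EGR1 (-0.46), EGR2 (-0.53), EGR3 (-0.35) and NR4A1 (-0.16) in washed. For the difference of the hypoxia effect between unwashed and washed they were EGR2 (0.24) and NR4A2 (-0.19).

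Without the 2 medium libraries set apart on the first component, the values that changed sign were EGR1 (0.014), EGR2 (-0.56) and EGR3 (0.11) for hypoxia in medium, EGR1 (-0.071) and EGR2 (0.0018) for SPP1 in medium, EGR1 (-0.18), EGR2 (0.26) and NR4A1 (-1.10) for SPP1 by oxygen in medium, and NR4A1 (-0.92) for the hypoxia effect in unwashed minus medium. As a description, NR4A1 in medium minus naive turned to -0.57. EGR3 for hypoxia in medium was 0.028 with RLE scaling and with DESeq2. With every ID with a count, EGR1 in medium was -0.0052 for SPP1 and -0.024 for SPP1 by oxygen. With only the modes compared, NR4A2 for hypoxia in unwashed was -0.0073.

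For hypoxia minus normoxia in medium, leaving out 1 library gave -0.32 to 0.52 for EGR2, -0.22 to 0.23 for EGR3, -0.33 to 0.021 for EGR1. For SPP1 minus no SPP1 in medium, leaving out 1 library gave -0.14 to 0.26 for EGR1, -0.43 to 0.25 for EGR2. For SPP1 by oxygen in medium, leaving out 1 library gave -0.19 to 0.53 for EGR1, -1.31 to 2.84 for NR4A1, -0.19 to 1.26 for NR4A3. For hypoxia effect, unwashed minus medium, leaving out 1 library gave -0.21 to 0.62 for EGR2, -1.02 to 1.05 for NR4A1. For washed minus unwashed after hypoxia, leaving out 1 library gave -0.56 to 0.19 for EGR2. For hypoxia minus normoxia in unwashed, leaving out 1 library gave -0.21 to 0.12 for NR4A2. For washed minus unwashed, leaving out 1 library gave -0.28 to 0.018 for NR4A1, -0.32 to 0.43 for EGR1. For hypoxia minus normoxia in washed, leaving out 1 library gave -0.34 to 0.28 for NR4A1, -0.25 to 1.13 for EGR1, -0.011 to 0.70 for NR4A3. For washed minus unwashed after normoxia, leaving out 1 library gave -1.30 to 0.085 for EGR1. For SPP1 by oxygen in washed, leaving out 1 library gave -0.14 to 2.63 for EGR1, -0.69 to 2.61 for EGR2, -0.13 to 0.73 for EGR3, -0.0083 to 1.23 for NR4A1. For SPP1 minus no SPP1 in unwashed, leaving out 1 library gave -0.14 to 0.07 for NR4A1, -0.19 to 0.15 for NR4A2, -0.046 to 0.49 for NR4A3. For SPP1 by oxygen in unwashed, leaving out 1 library gave -0.042 to 1.26 for EGR1, -0.022 to 0.91 for EGR2, -0.55 to 0.12 for NR4A2. For hypoxia effect, unwashed minus washed, leaving out 1 library gave -0.12 to 0.21 for NR4A2, -1.55 to 0.11 for EGR2. EGR2 in medium minus naive was -0.36 without naive replicate 1.

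Blocking on the replicate number, no member's call changed. EGR3 for hypoxia in medium was 0.025 and EGR1 for SPP1 by oxygen in medium -0.11 under the replicate block. Whether the numbers pair libraries was checked on the correlation of deviations from group means. It ran from -0.477 to 0.53 over 210 pairs of libraries with the same number, 36 being over 0.1. The median was 0.00679, beside -0.00124 for pairs with different numbers. By this measure 17 of 37 libraries correlated best with their own number. How many would do so by chance was not computed, so these values do not settle whether the numbers pair libraries.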
